A study of Mus musculus with 38 samples.

Results

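Chromatin accessibility at the ribosomal protein genes was described in CD8+ T cells of young and aged mice. ATAC-seq, in which the Tn5 enzyme cuts open chromatin, had been summarised as normalized reads per peak. The genes were those whose symbol starts with Rpl or Rps and a digit, together with Rpsa, Rplp0, Rplp1 and Rplp2, on autosomes and without the Rps6k kinase genes. A peak belonged to the set when its nearest protein-coding gene in the mm10 RefSeq annotation was one of these genes, at a distance of at most 10000 bp. The set held 139 of 73610 peaks in the table of endogenous cells, at 75 genes, and 219 of 169323 peaks in the table of OT-1 and naive cells, at 78 genes. In all, 78 of 87 autosomal genes had a peak in either table. Of the peaks, 134 of 139 (96.4%) and 136 of 219 (62.1%) overlapped a member of the other table.

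All mice were C57BL/6J with a wild type genotype entry. Young mice were 10 to 12 weeks and aged mice 64 to 68 weeks old. Endogenous CD8+ T cells and OT-1 cells, whose transgenic receptor recognises an ovalbumin peptide, were sorted from B16-OVA tumours, an ovalbumin-expressing melanoma line, on day 15. Tprog, progenitor exhausted cells, were Slamf6+Tim-3-, and Tterm, terminally exhausted cells, were Slamf6-Tim-3+. Tadys cells are labelled age-associated dysfunctional, and the series text gives the gate Slamf6-Tim-3- for a subset it calls TTAD. The endogenous table held 4 young Tprog, 5 young Tterm, 3 aged Tprog, 3 aged Tterm and 2 aged Tadys libraries. The other table held 2 young and 2 aged libraries of naive splenic cells, 2 young and 2 aged of OT-1 Tprog, and 7 young and 6 aged of OT-1 Tterm. The sources used here do not say what hosts received the OT-1 cells. Libraries came from pools of 5000 to 50000 cells, and the sources describe 2 or 3 biological replicates, fewer than some groups have libraries, so p-values measure the spread between libraries, which may in part be technical.

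Ribosomal proteins assemble with ribosomal RNA into the small (Rps) and large (Rpl) ribosomal subunits. Their genes are transcribed at high rates in nearly all cells, and T cells raise ribosome production when they are activated. Their mRNAs typically begin with a 5′ terminal oligopyrimidine (TOP) motif, a C followed by pyrimidines, through which mTORC1 controls their translation.

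The start regions of 6 genes that the results below turn on are shown so that the shared pyrimidine run and its exceptions can be seen. They are RefSeq sequences of build GRCm38.p6 on the strand of the gene, with 100 bases before the transcription start and 20 from it onward. Capitals mark the pyrimidine run of at least 5 bases that lies nearest the annotated start.
Rpl41, chr10:128549149-128549268, minus strand: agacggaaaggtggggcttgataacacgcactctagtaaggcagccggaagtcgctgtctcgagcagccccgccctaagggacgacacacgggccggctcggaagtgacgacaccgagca
Rpl22l1, chr3:28805408-28805527, plus strand: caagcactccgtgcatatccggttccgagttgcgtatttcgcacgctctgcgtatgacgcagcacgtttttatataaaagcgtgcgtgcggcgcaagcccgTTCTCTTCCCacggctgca
Rpl27a, chr7:109519095-109519214, plus strand: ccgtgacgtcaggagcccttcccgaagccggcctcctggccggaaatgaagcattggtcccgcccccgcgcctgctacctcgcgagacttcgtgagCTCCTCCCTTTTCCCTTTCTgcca
Rps15a, chr7:118116128-118116247, minus strand: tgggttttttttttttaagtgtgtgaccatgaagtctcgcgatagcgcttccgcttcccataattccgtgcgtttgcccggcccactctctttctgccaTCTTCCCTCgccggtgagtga
Rpl35, chr2:39005112-39005231, minus strand: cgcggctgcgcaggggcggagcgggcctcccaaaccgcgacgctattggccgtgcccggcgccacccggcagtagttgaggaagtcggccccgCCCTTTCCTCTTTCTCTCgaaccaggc
Rps6, chr4:86857348-86857467, minus strand: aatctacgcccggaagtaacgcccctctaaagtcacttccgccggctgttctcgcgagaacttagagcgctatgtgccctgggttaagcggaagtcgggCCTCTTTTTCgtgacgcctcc
The runs were 20 bases at Rpl27a, 18 at Rpl35, 10 at Rpl22l1 and Rps6 and 9 at Rps15a, whereas the start annotated for Rpl41 had none of 5 bases or more. All 6 starts lay inside a member peak of the endogenous table.

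Promoter entries were matched by symbol for 66 of the 87 genes, and for 51 the start lay in a peak of the set. From 25 bases before to 50 after the start, 70.6% of these 51 promoters held a run of 8 or more pyrimidines, against 26.4% of 17426 promoters of other protein-coding genes and 23.1% of the 9838 whose start lay in a peak of the endogenous table. A C at the start followed by 4 pyrimidines, the pattern of a TOP motif, was present in 19.6% against 2.1% of the other promoters (2.11% of those with an open start). Over the whole window of 250 bases before to 50 after the start, on either strand, the letters CCGGAAG, bound by ETS factors, were found in 39.2% against 11.8% (19.1% of those with an open start). AAGATGG was found in 15.7% against 6.34% (7.06% of those with an open start), and GGGCGG, a GC box, in 62.7% against 46.3% (68.1% of those with an open start). CCAAT was found in 33.3% against 39.1% (39.3% of those with an open start). TATAAA was found in 7.84% against 13.4% of all others but 6.56% of those with an open start, and the direction also turned for CACGTG, found in 9.80% against 7.90% and 10.4%, and for GCATGCGC, found in 3.92% against 3.61% and 5.62%. These motifs were chosen with sequences of the set known, and the shares are descriptions.

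Reads in peaks numbered 4.64 to 87.6 megareads per endogenous library and 6.80 to 27.7 megareads per library of the other table. All endogenous libraries shared the entry Batch 1 & 2. In the other table all naive libraries were in Batch 3, so batch and naive state cannot be told apart, both aged OT-1 Tprog libraries were in Batch 6, and most OT-1 Tterm libraries were in Batch 4 & 5. The first aged OT-1 Tprog library stood apart, with a mean over ribosomal protein start peaks of 243 normalized reads against 361.8 to 666.1 in the other OT-1 libraries. Each of the 6 CD8 T cell markers examined (Cd8a, Cd8b1, Cd3d, Cd3e, Cd3g, Cd2) had peaks in both tables. Having peaks does not mark a cell type here, as all 8 myeloid and all 5 B cell genes examined had peaks in the OT-1 and naive table. Peaks at the CD8 genes summed to 7821 to 7886 normalized reads in young naive, 8943 to 9323 in aged naive and 8626 to 13157 in young OT-1 Tterm. In endogenous cells they overlapped, at 15551 to 18872 in young Tterm and 15015 to 17108 in young Tprog.

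Peaks that hold a ribosomal protein gene's start were about as wide as those of other genes. They had a median width of 1525 bp in the endogenous table, against 1548 bp for start peaks of other genes and 977 bp for the other members. Per kb of peak, the median over the 51 start peaks was 451 normalized reads, from 243 at Rpl6 to 1125 at Rpl13a. This placed the median start peak at percentile 61 of the start peaks of all genes, with 15 of 51 above the 75th percentile and 14 below the 50th. In the other table the median was 266 per kb, again lowest at Rpl6 (115) and highest at Rpl13a (712). Both are large-subunit genes. The rest of the set lay near a gene's far end or start without a matched promoter entry, inside genes, or between genes. Of the 139 endogenous members 85 were within 1000 bp of a gene end, 7 farther inside a gene and 47 between genes, and all 139 passed the filter of a mean of 10 normalized reads. In the OT-1 and naive data 105, 18 and 96 of 219 members lay in these places, and 176 passed the filter while 43 did not.

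Start peaks of ribosomal protein genes varied little among the endogenous groups. The range of a peak's 5 group means had a median of 0.43 on the log2 scale over the 51 start peaks, and 0 of 51 exceeded 1. For the other members the median was 0.55, with 18.2% above 1. For the start peaks of other genes it was 0.45, with 8.38% above 1, and for all peaks tested 0.86, with 41.0% above 1. Across the 6 groups of the other table the medians were 0.92 for the 51 start peaks, 1.10 for the other members tested, 0.96 for start peaks of other genes and 1.51 for all peaks. Group size and naive batch enter these ranges, so the tables cannot be compared with each other.

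Averaged over the 51 start peaks, young Tterm libraries had the highest endogenous levels. The 5 young Tterm libraries had means of 876, 913, 948, 961 and 998 normalized reads per peak, and the 4 young Tprog libraries had 691, 708, 753 and 841. All young Tterm values were above all young Tprog values. The 3 aged Tprog libraries had 783, 790 and 805, the 3 aged Tterm libraries had 813, 813 and 921, and the 2 Tadys libraries had 711 and 776. Aged Tterm was thus above aged Tprog in each library, by a smaller margin. With library totals set equal the aged groups overlapped, at 812 to 869 in Tterm and 778 to 823 in Tprog. The young groups then stayed apart by little, at 869 to 918 and 734 to 867. The mean over start peaks of other genes moved in the same direction. The ratio of both means cannot be changed by 1 factor per library, though a scaling that varies with peak level can change it. It was 1.18 to 1.24 in young Tterm, 1.10 to 1.18 in young Tprog and 1.16 to 1.19 in aged Tterm. It was 1.10 to 1.15 in aged Tprog and 1.12 in both Tadys libraries. In the other table the ratio was 1.33 and 1.39 in young naive, 1.24 and 1.26 in aged naive, 1.10 and 1.21 in young OT-1 Tprog, 1.13 and 1.16 in aged OT-1 Tprog, 1.13 to 1.29 in young OT-1 Tterm and 1.09 to 1.27 in aged OT-1 Tterm. Both young naive libraries lay above every other library, aged naive libraries lay within the range of young OT-1 Tterm, and the OT-1 groups overlapped each other.

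**Figure D1:**
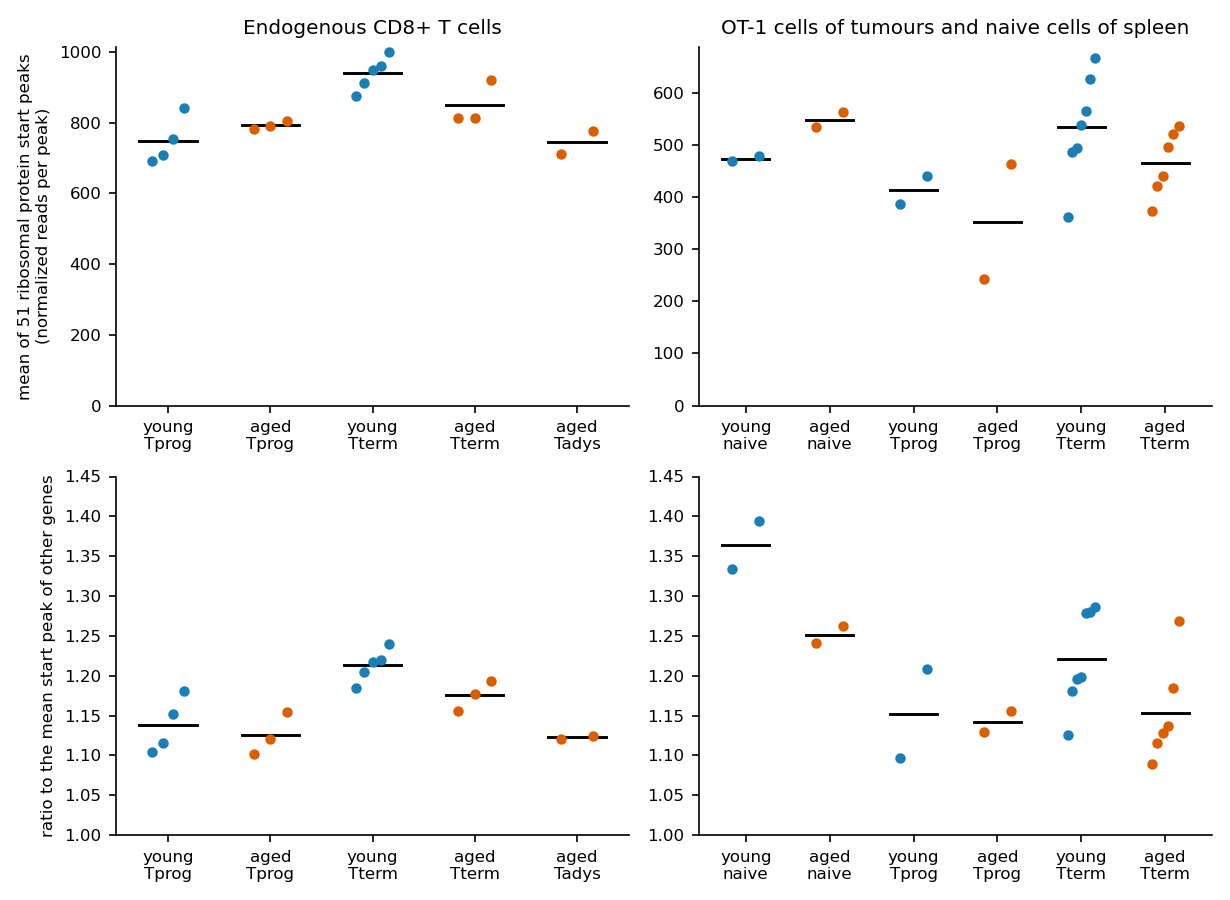
Mean over the 51 ribosomal protein start peaks per library (upper panels, normalized reads per peak, axis from 0) and its ratio to the mean start peak of other genes (lower panels, axis from 1.00), by group, with young libraries in blue and aged in orange. Points are libraries and bars are group means; young Tterm libraries lie between 876 and 998, all above the young Tprog libraries (691 to 841).

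Endogenous Tterm and Tprog cells of young mice were compared to ask how accessibility of these genes differs between terminally and progenitor exhausted cells. Ribosomal protein start peaks were more open in Tterm: 22 of 51 were higher, none was lower, and all 51 fitted differences were above 0, from 0.02 at Rpl13 to 0.62 at Rpl22l1 (log2, median 0.32). Over all 139 members 32 were higher and 7 lower, where 14.3% of all peaks tested were called higher, 11.3% lower and 25.6% in either direction (limma's moderated test on log2 of normalized reads plus 1, Benjamini-Hochberg adjusted p under 0.05 over all peaks). The members' median difference was 0.21 and that of all peaks -0.01. Position divided the members: 30 of 85 at a gene end were higher and 0 lower, while 2 of 54 farther away were higher and 7 lower, with a median of -0.06. Start peaks of other genes had a median of 0.20, with 2753 of 10699 called higher and 634 lower, and 73.2% had fitted differences above 0.

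Among large-subunit genes Rpl41, which encodes the shortest ribosomal protein, had the highest start peak in reads (chr10:128547054-128549712), a peak that also overlaps Zc3h10. Young Tprog libraries had 1786, 1871, 1921 and 2106 normalized reads there, and young Tterm libraries had 2553, 2644, 2717, 2847 and 2931. Every Tterm library was above every Tprog library, with means of 2738 ± 152 (SD, n = 5) and 1921 ± 135 (SD, n = 4), a log2 difference of 0.51 (SE 0.10) and an adjusted p of 0.000279 in limma. Of all peaks tested, 11.5% had every young Tterm library above every young Tprog library, and 10.5% had every one below. Rpl27 (chr11:101441927-101443347) had 920.8, 971.4, 1054 and 1226 in young Tprog and 1327, 1395, 1428, 1700 and 1719 in young Tterm. The libraries did not overlap, and the difference was 0.54 (SE 0.11, adjusted p = 0.000353 in limma). Rpl27a (chr7:109518356-109520109), with the longest run among the sequences printed above, had 589.4, 822.7, 939.7 and 1064 in Tprog and 1102 to 1343 (median 1283) in Tterm. These also did not overlap, at a difference of 0.56 (SE 0.13, adjusted p = 0.00206 in limma).

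Rpl22 and its paralog Rpl22l1 were both more open in Tterm. Rpl22 is required for the development of most T cells, and the proteins can replace each other in the large subunit. At the Rpl22l1 start peak (chr3:28804928-28806274) young Tprog libraries had 656.1, 841.3, 851.1 and 959.5, and young Tterm libraries had 1162, 1189, 1274, 1306 and 1365. The libraries did not overlap, and this was the largest difference among the start peaks, 0.62 (SE 0.13, adjusted p = 0.000583 in limma). It passed the threshold in all 20 alternatives tried, though those on ties and on distance to a gene end cannot change a single peak's call. At Rpl22 (chr4:152325249-152326768) the means were 1015 ± 91.0 (SD, n = 5) in Tterm and 723 ± 93.8 (SD, n = 4) in Tprog, a difference of 0.49 (SE 0.11, adjusted p = 0.00171 in limma), again without overlap. Rpl38, known for its part in translating Hox mRNAs, had 1293 ± 75.6 (SD, n = 5) in Tterm and 1013 ± 70.5 (SD, n = 4) in Tprog, a difference of 0.35 (adjusted p = 0.00905 in limma).

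Among small-subunit genes the largest start-peak difference was at Rps13 (chr7:116333640-116334947). Young Tprog libraries had 569.2, 612.8, 706.7 and 744.8, and young Tterm libraries had 852.4, 905.2, 915.0, 1093 and 1112. No Tterm library was as low as a Tprog library, and the difference of 0.57 (SE 0.13, adjusted p = 0.00115 in limma) passed in all 20 alternatives. Rps15a was higher by 0.52 (SE 0.12, adjusted p = 0.00163 in limma) at its start peak, with 945 ± 69.6 (SD, n = 5) against 662 ± 72.2 (SD, n = 4) and no overlap. Rps3, a small-subunit protein that also takes part in DNA repair, was higher by 0.39 (adjusted p = 0.00892 in limma). Rps19, the gene most often mutated in Diamond-Blackfan anaemia, was higher by 0.43 (adjusted p = 0.0153 in limma), with Tprog libraries at 866.6, 1115, 1136 and 1557 and Tterm libraries at 1333 to 1691. At Rps19 the highest Tprog library lay above the median Tterm library. Rpsa, also known as the laminin receptor precursor, was higher by 0.32 (adjusted p = 0.0245 in limma).

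Several well-known members did not pass the threshold. Rps27a, which encodes a fusion of ubiquitin and a small-subunit protein, had 1037 ± 84.4 (SD, n = 5) in Tterm and 1037 ± 89.0 (SD, n = 4) in Tprog. Rplp0, the base of the ribosomal stalk, had 1078 ± 145 (SD, n = 5) and 898 ± 235 (SD, n = 4), a difference of 0.29 with adjusted p = 0.177 in limma. Rpl5 and Rpl11, which bind Mdm2 when ribosome assembly is disturbed, had start-peak differences of 0.30 (adjusted p = 0.0915) and 0.24 (adjusted p = 0.130) in limma. Rps6, the substrate of S6 kinase, had 0.27 (adjusted p = 0.0952).

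The 7 lower peaks all lay between genes. At a peak 9864 bp from Rpl29 (chr9:106418254-106419025) young Tprog libraries had 74.4, 80.9, 82.7 and 86.1 and young Tterm libraries had 13.5, 25.8, 36.6, 41.3 and 54.9. The groups did not overlap, at a difference of -1.35 (SE 0.32, adjusted p = 0.00212 in limma) that passed in all 20 alternatives. At a peak 6287 bp from Rpl11 (chr4:136059680-136060529) the Tprog libraries had 65.7, 73.6, 87.7 and 118.2 and the Tterm libraries had 30.0, 36.2, 51.6, 53.1 and 61.8, a difference of -0.89 (SE 0.27, adjusted p = 0.0141 in limma). Other lower peaks were near Rps24, Rps14, Rplp1 and a second site near Rpl11. Their link to the named gene rests on distance alone.

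These counts moved with the scaling of the libraries, and the shares of all peaks called under each scaling are not given here. With equal library totals 14 members were higher and 11 lower, 10 start peaks were higher and the start-peak median was 0.16, while the median of all peaks moved from -0.01 to -0.17. With quantile scaling 2 members were higher and 3 lower, both higher ones start peaks, with a start-peak median of 0.08. Of the start peaks described above, Rpl22l1 and Rps13 passed under both scalings. Rpl41, Rpl27, Rpl27a, Rpl22 and Rps15a passed with equal totals but not with quantile scaling (adjusted p of 0.0551 to 0.0862 in limma). Rpl38, Rps3, Rps19 and Rpsa passed under neither, with adjusted p of 0.127, 0.0826, 0.0959 and 0.231 under equal totals and 0.747, 0.389, 0.447 and 0.847 under quantile scaling in limma, and Rpsa was called in 6 of 9 fits that left out a library.

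Peaks at myeloid marker genes moved with the comparison: 6 of 8 such genes had peaks, which summed to 7854 to 9188 normalized reads in young Tterm and 5838 to 7268 in young Tprog, and those of the 2 genes with a start peak summed to 856 to 1077 and 562 to 686. Peaks at 3 of 5 B cell marker genes, none of them a start peak, moved the other way, with 748 to 1005 in young Tterm and 1068 to 1358 in young Tprog. Peaks at 3 of 4 NK cell marker genes, a list that includes Eomes, also a gene of CD8 T cells, summed to 4179 to 5246 in young Tterm and 3425 to 4000 in young Tprog, without overlap, while those of the 2 genes with a start peak overlapped (1021 to 1462 and 941 to 1197). Peaks at 5 of 7 melanocyte genes overlapped between the groups (1488 to 1888 and 1419 to 1727), as did those at 4 of 5 CD4 and regulatory T cell genes (4707 to 6028 and 4658 to 5611). The part of other cells in the differences was not tested, and in sorted pools fewer cells of a type and less accessibility per cell cannot be told apart.

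In aged mice the same comparison gave few calls. Of the 139 members 2 were higher and 1 lower in aged Tterm, where 12.1% of all peaks were called (6.75% higher and 5.37% lower). None of the 51 start peaks was called by limma or edgeR and 2 were by DESeq2, 4 of 51 had an unadjusted p under 0.05, and 39 of 51 fitted differences were above 0, from -0.18 at Rpl15 to 0.36 at Rpl27 (median 0.12, against 0.03 for start peaks of other genes). Among start peaks of other genes 55.0% had fitted differences above 0. At Rpl41 aged Tprog libraries had 1778, 1849 and 2187 and aged Tterm libraries had 2202, 2302 and 2643. The Tterm values were above the Tprog values, but the difference of 0.30 had an adjusted p of 0.112 in limma. At Rpl22l1 aged Tprog had 760.9, 1021 and 1191 and aged Tterm 962.1, 994.9 and 1253, which overlapped (0.12, adjusted p = 0.700 in limma). At Rps13 aged Tprog had 872.3, 875.9 and 1075 and aged Tterm 723.3, 952.6 and 992.9, so the fitted direction was below 0. Rps27a had 910 ± 105 (SD, n = 3) in aged Tterm and 1208 ± 187 (SD, n = 3) in aged Tprog, a difference of -0.40 with an adjusted p of 0.0509 in limma.

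The difference between the ages was itself tested. For 48 of 51 start peaks the fitted Tterm minus Tprog difference was larger in young than in aged mice, and the interaction of age and subset had a median of -0.21 over them, from -0.65 at Rps13 to 0.19 at Rps21. Start peaks of other genes had a median interaction of -0.16, with 27.2% of them above 0. Of all 71756 peaks limma called 0, which is 0% in either direction, and of the 139 members edgeR and DESeq2 also called 0. An unadjusted p under 0.05 was found for 16 of 139 members, of which 8 were start peaks. Both comparisons of age within a subset use these same libraries. In Tterm 0 of 139 members were called between the ages (0.00836% of all peaks, 0.00697% higher and 0.00139% lower) by limma, edgeR or DESeq2, 11 had an unadjusted p under 0.05, and the start-peak median of aged minus young was -0.14. In Tprog 0 of 139 were called by limma (0.166% of all peaks, 0.0822% higher and 0.0836% lower) or edgeR and 2 by DESeq2, 13 had an unadjusted p under 0.05, and the start-peak median was 0.06. A p that misses the threshold in groups of this size does not show that the ages were alike.

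**Figure D2:**
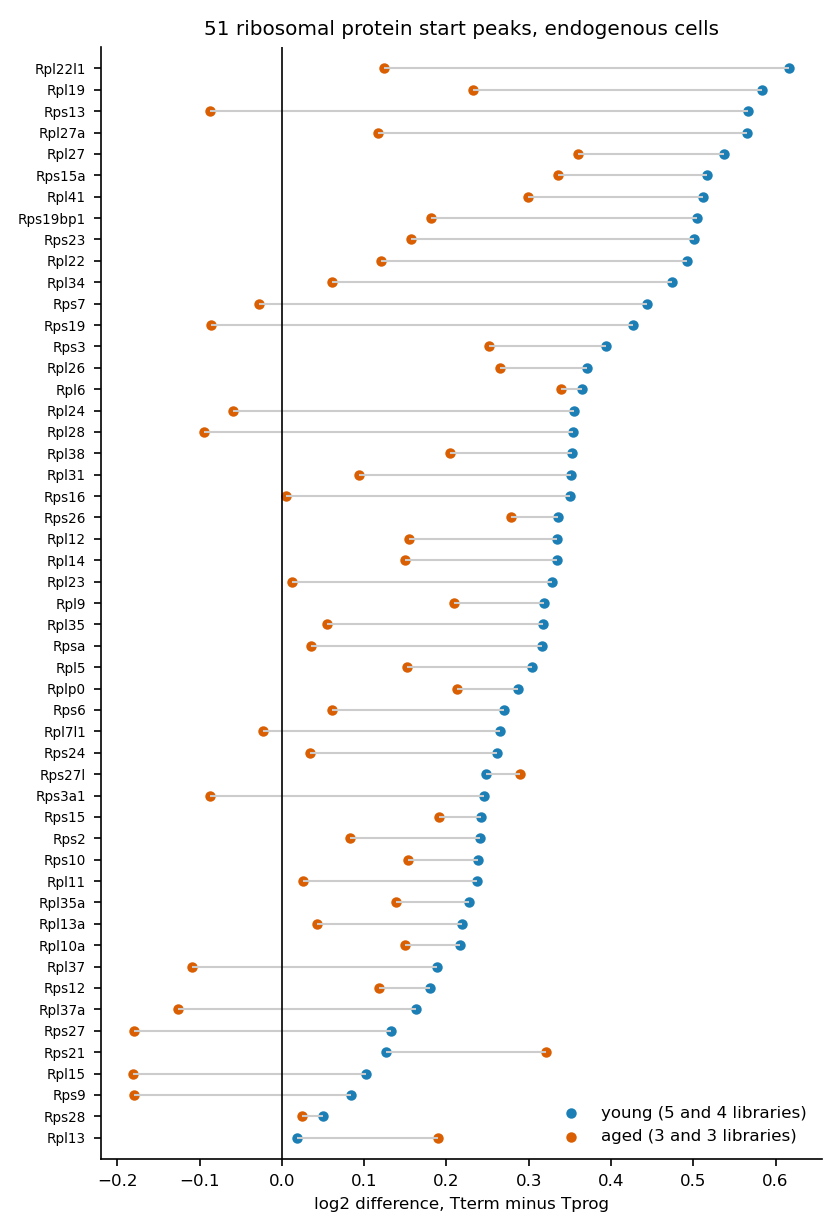
Fitted log2 difference between endogenous Tterm and Tprog at each of the 51 ribosomal protein start peaks, for young (blue) and aged (orange) mice, with 1 row per gene ordered by the young value. All 51 young values lie above 0, and 48 of 51 lie to the right of the aged value of the same gene.

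A peak inside Rps15a was called in both age groups. Rps15a encodes a small-subunit protein, and the peak (chr7:118113097-118114236) lies within the gene body (chr7:118104374-118116147), which is read from the minus strand, with its start in a separate peak. The gene table used gives no exons, so whether the peak is exonic or intronic is not stated. Young Tprog libraries had 449.6, 477.4, 534.4 and 538.1, and young Tterm libraries had 493.7, 725.6, 735.4, 785.2 and 989.4. One Tterm library lay within the Tprog range, at a difference of 0.55 (SE 0.15, adjusted p = 0.00742 in limma). Aged Tprog libraries had 405.4, 438.1 and 457.1, and aged Tterm libraries had 608.9, 657.0 and 770.2. These did not overlap, at a difference of 0.64 (SE 0.18, adjusted p = 0.0189 in limma). The young call was lost with equal totals (adjusted p = 0.0517) and with quantile scaling (adjusted p = 0.0799), while the aged call held under both and was lost without the second aged Tterm or the third aged Tprog library.

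Tadys libraries came from aged mice only, and whether young tumours held such cells is not shown by these data. Tadys cells were compared with aged Tterm and aged Tprog, and both comparisons share the 2 Tadys libraries. Against Tterm 7 members were lower and 0 higher, where 2.06% of all peaks were called higher and 4.23% lower (6.30% in either direction). The start-peak median was -0.22, against -0.13 for start peaks of other genes. The lowest adjusted p was at the peak inside Rps15a. The Tadys libraries had 262.5 and 337.3 there, below every Tterm and Tprog library given above, and the difference from Tterm was -1.18 (SE 0.20, adjusted p = 0.00145 in limma). It passed in all 16 alternatives.

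Some peaks of marker genes of other cells differed between these groups too. Those at 3 of 4 NK cell genes summed to 3388 to 3519 normalized reads in Tadys, 4026 to 4980 in aged Tterm and 4024 to 4313 in aged Tprog, and their start peaks to 749 to 822, 1032 to 1428 and 1225 to 1326. Peaks at 6 of 8 myeloid genes summed to 6088 to 7116 in Tadys, overlapping aged Tterm (6905 to 7936) and aged Tprog (5926 to 6364). Start peaks of 2 of these genes summed to 477 to 599 in Tadys and 700 to 923 in aged Tterm, with 488 to 673 in aged Tprog. Peaks at 4 of 5 CD4 and regulatory T cell genes summed to 4473 to 4615 in Tadys, below aged Tterm (5074 to 5935) and aged Tprog (5169 to 5701), and those at 3 of 5 B cell genes to 948 to 1056 in Tadys and 758 to 892 in aged Tterm. Their part in the differences was not tested.

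Of the start peaks Rpl5, Rps23 and Rpl35 were lower in Tadys than in aged Tterm. Rpl5 (chr5:107900215-107901585) had 392.7 and 525.7 in Tadys, 647.4, 796.1 and 831.0 in aged Tterm and 524.2, 726.4 and 818.5 in aged Tprog. Tadys was below Tterm in every library and overlapped Tprog, at -0.73 against Tterm (SE 0.18, adjusted p = 0.0159) and -0.58 against Tprog (adjusted p = 0.0497) in limma. Rps23, a protein at the decoding centre, had 499.8 and 533.0 in Tadys and 773.0, 796.9 and 877.5 in aged Tterm, a difference of -0.66 (SE 0.18, adjusted p = 0.0299 in limma). Rpl35, at the exit of the peptide tunnel, had 625.2 and 647.2 in Tadys and 880.0, 902.5 and 918.7 in aged Tterm, a difference of -0.50 (SE 0.15, adjusted p = 0.0473 in limma). Of the 5 fits that each left out a library, the call against Tterm held in 2 for Rpl5, 1 for Rps23 and 0 for Rpl35. Quantile scaling also ended all 3 calls (adjusted p of 0.0536, 0.0978 and 0.190 in limma), and the call of Rpl5 against Tprog held in 7 of 16 alternatives.

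Against aged Tprog 2 members were higher and 5 lower in Tadys, where 2.61% of all peaks were called higher and 4.04% lower (6.65% in either direction). The higher start peak was that of Rpl27, with 1399 and 1416 in Tadys and 937.7, 982.0 and 1009 in aged Tprog, a difference of 0.53 (SE 0.14, adjusted p = 0.0277 in limma). Aged Tterm had 1209, 1260 and 1288 there, so Tadys was the highest aged group at Rpl27 while it was the lowest at Rpl5. Rpl24, which forms a bridge between the subunits, had 293.2 and 310.6 in Tadys and 457.1, 465.0 and 510.1 in aged Tprog, a difference of -0.66 (SE 0.19, adjusted p = 0.0334 in limma). A peak 3896 bp from Rps20 (chr4:3826599-3827688) had 30.1 and 47.1 in Tadys and 83.1, 134.5 and 154.2 in aged Tprog, a difference of -1.65 (SE 0.35, adjusted p = 0.00608 in limma). With a library left out, the calls against Tprog held in 0 of 5 fits for Rpl27, 1 of 5 for Rpl24 and 4 of 5 for the peak near Rps20, which was lost without the first Tadys library. When only the compared groups were fitted, 1 member was called against Tterm and 0 against Tprog, and leaving out the third aged Tterm library gave 1 call against Tterm.

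**Figure D3:**
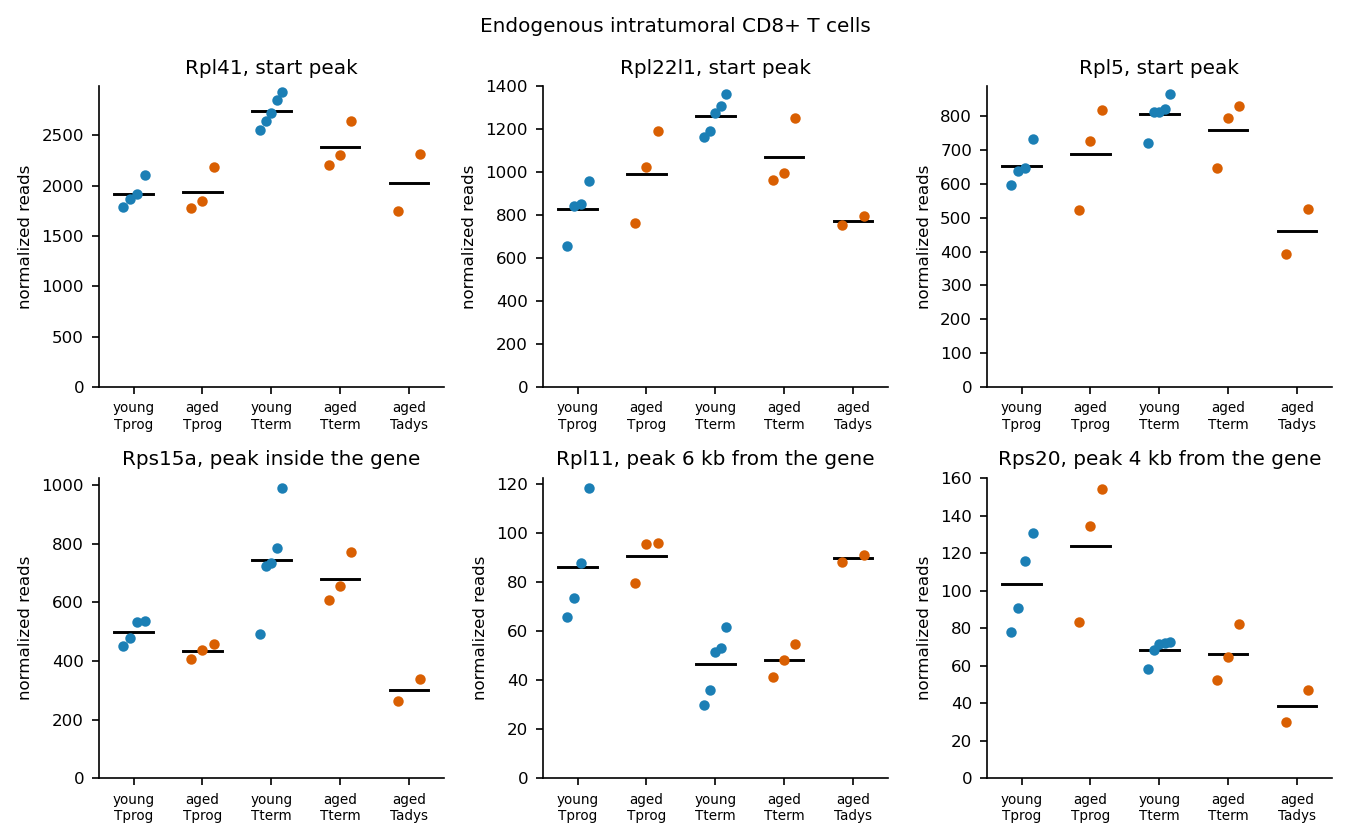
Normalized reads per library (vertical axes from 0) at 6 peaks of ribosomal protein genes in the 5 endogenous groups, with young libraries in blue, aged in orange and bars at group means. The Rpl41 and Rpl22l1 start peaks separate young Tterm from young Tprog, the peak inside Rps15a is lowest in Tadys (262.5 and 337.3), and the peaks near Rpl11 and Rps20 are lower in Tterm than in Tprog on average.

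OT-1 Tterm and Tprog cells, which share 1 receptor, gave fewer calls in young mice. Of 176 members tested 2 were higher and 1 lower, where 4.06% of all peaks were called higher and 3.57% lower (7.63% in either direction). None of the 51 start peaks was called by limma, while edgeR called 2 and DESeq2 3 higher, although their median difference of 0.24 was near that in endogenous young cells, and start peaks of other genes had 0.15. At Rpl22l1 OT-1 Tterm had 714 ± 173 (SD, n = 7) and Tprog 401 ± 14.1 (SD, n = 2), a difference of 0.72 with an adjusted p of 0.110 in limma.

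In aged OT-1 cells 11 of 176 members were higher and 1 lower in Tterm, where 11.3% of all peaks were called higher and 3.39% lower (14.7% in either direction). All 51 start peaks had fitted differences above 0, with a median of 0.65, but 3 of 51 were called. Start peaks of other genes had a median of 0.57, with 81.8% above 0. At the peak inside Rps15a (chr7:118113148-118114415) the aged OT-1 Tprog libraries had 142.0 and 288.6 and the 6 aged OT-1 Tterm libraries had 420.4 to 620.9 (median 464.2). They did not overlap, at a difference of 1.37 (SE 0.29, adjusted p = 0.00195 in limma). In young OT-1 cells this peak had 302.3 and 340.7 in Tprog and 344.2 to 550.7 (median 458.7) in Tterm, a difference of 0.50 with an adjusted p of 0.237 in limma. A peak at the other end of Rps15a (chr7:118104191-118105417) was higher in OT-1 Tterm at both ages, by 0.77 in young (adjusted p = 0.0423) and 1.5 in aged mice (adjusted p = 0.000769) in limma. The young call held in 3 of 9 fits that left out a library and was lost with equal totals (adjusted p = 0.0688), while the aged call held in all 8 such fits.

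The aged OT-1 counts rest on 2 Tprog libraries of Batch 6, with 1 Tterm library in that batch. Without the first Tprog library 3 members were called and the members' median fell from 0.61 to 0.17, without the second 107 were called at a median of 1.05, and within Batch 6 alone none was called. The call inside Rps15a was among those lost without the first Tprog library. Equal totals gave 5 higher and 3 lower members, and quantile scaling 7 and 6. Shares of all peaks called in these alternative fits are not given here.

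OT-1 cells from the tumour were compared with naive splenic cells of the same age, and the young Tterm and Tprog comparisons share the 2 young naive libraries. Against young naive cells 16 of 176 members were higher and 17 lower in young OT-1 Tterm, where 22.4% of all peaks were called higher and 17.9% lower (40.3% in either direction). Start peaks contributed 3 higher and 0 lower, and their median was -0.03. Beyond 1000 bp of a gene end 7 members were higher and 14 lower. The start peaks called were those of Rpl41, Rpl27 and Rpl13a. Rpl41 had 1021 and 1026 in young naive and 1406 to 2315 (median 1755) in young OT-1 Tterm, a difference of 0.80 (SE 0.24, adjusted p = 0.0110 in limma). It was lost without either young naive library, and under quantile scaling it was 0.08 (adjusted p = 0.545), where 13 members were higher and 54 lower. With equal totals 16 were higher and 45 lower. The shares of all peaks called under these scalings are not given here.

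Peaks inside genes were among those with the largest differences. At the peak inside Rps15a young naive libraries had 140.1 and 145.1 against 344.2 to 550.7 in young OT-1 Tterm. The difference was 1.67 (SE 0.24, adjusted p = 5.28e-06 in limma), while the start peak of Rps15a had 452 ± 59.2 (SD, n = 2) in naive and 505 ± 156 (SD, n = 7) in Tterm (0.00, adjusted p = 0.996). A peak inside Rpl35 (chr2:39003026-39003705) had 46.3 and 51.3 in young naive, 170.9 and 172.9 in young OT-1 Tprog and 118.8 to 253.0 (median 175.8) in young OT-1 Tterm. Every OT-1 library was above the naive ones, at differences of 1.80 (SE 0.31, adjusted p = 0.000153) for Tprog and 1.86 (SE 0.26, adjusted p = 3.07e-06) for Tterm in limma. A peak inside Rpl13a, a large-subunit protein that can also silence mRNAs of inflammatory genes, lies at chr7:45126856-45127124. It had 8.8 and 15.4 in young naive, 29.5 and 34.6 in young OT-1 Tprog and 42.3 to 72.2 (median 53.8) in young OT-1 Tterm, with 2.08 (SE 0.31, adjusted p = 9.69e-06 in limma) for Tterm.

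Rpl39l, a paralog of the large-subunit gene Rpl39 known for its expression in testis, was more open in the OT-1 cells. Its peak (chr16:10170763-10173037) lies inside the gene body (chr16:10170197-10174911) and had 13.6 and 17.4 in young naive, 88.4 and 120.5 in young OT-1 Tprog and 30.0 to 80.6 (median 57.7) in young OT-1 Tterm. The 3 groups did not overlap, at 2.67 (SE 0.38, adjusted p = 1.67e-05) for Tprog and 1.92 (SE 0.31, adjusted p = 2.69e-05) for Tterm in limma. Aged naive libraries had 9.2 and 17.6 and aged OT-1 Tterm 42.4 to 100.5 (median 73.7), a difference of 2.55 (SE 0.31, adjusted p = 8e-07 in limma). The Rpl39l, Rpl35, Rpl13a and both Rps15a calls against young naive passed in all 21 alternatives for young Tterm, and those against aged naive in all 20 for aged Tterm.

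Of the 17 lower members 14 lay beyond 1000 bp of a gene end. A peak 6433 bp from Rpl11 (chr4:136059826-136060498) had 63.6 and 72.2 in young naive, 39.0 and 50.7 in young OT-1 Tprog and 15.6 to 32.2 (median 24.7) in young OT-1 Tterm. Its difference between Tterm and naive was -1.52 (SE 0.32, adjusted p = 0.000552 in limma). It overlaps the endogenous peak near Rpl11 described above. A peak 6794 bp from Rps14, a small-subunit gene on chromosome 18, had 106.7 and 134.7 in young naive and 27.9 to 83.6 (median 36.9) in young Tterm, a difference of -1.76 (SE 0.53, adjusted p = 0.01 in limma) that was lost without either young naive library.

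**Figure D4:**
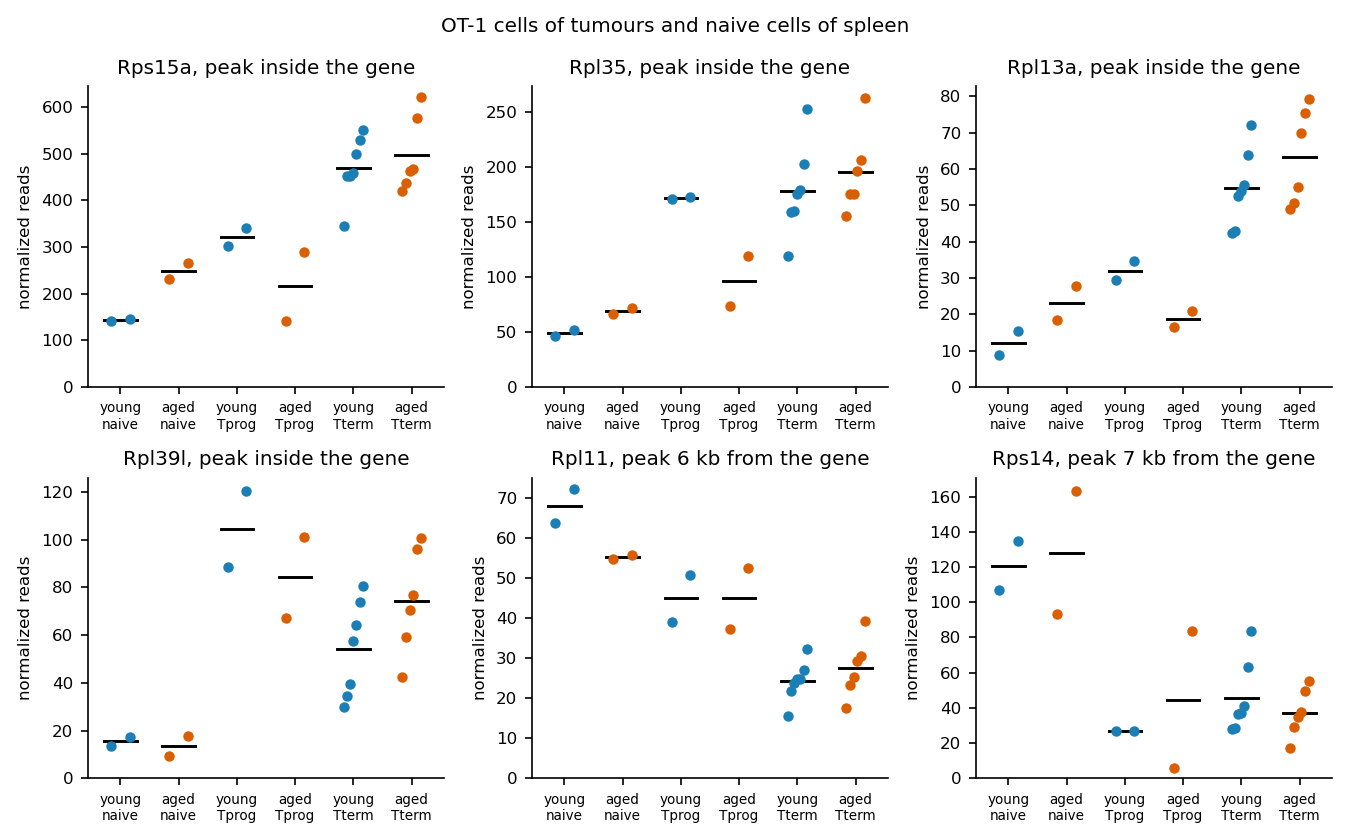
Normalized reads per library (vertical axes from 0) at 6 peaks of ribosomal protein genes in naive cells and OT-1 cells, with young libraries in blue, aged in orange and bars at group means. The peaks inside Rps15a, Rpl35 and Rpl13a and the Rpl39l peak have higher means in OT-1 Tterm than in naive cells of the same age, and the peaks near Rpl11 and Rps14 have their highest young means in naive cells (63.6 and 72.2 at Rpl11, against 15.6 to 32.2 in young Tterm).

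Young OT-1 Tprog against young naive had 6 of 176 members higher and 13 lower, where 15.0% of all peaks were called higher and 9.15% lower (24.2% in either direction). No start peak was called by limma, edgeR and DESeq2 each called 1 higher and 4 lower, and the start-peak median of -0.38 compared with -0.11 for start peaks of other genes. Under quantile scaling 22 start peaks were lower and 0 higher, with 9 members higher and 51 lower in all, and with equal totals 12 were lower and 1 higher. Shares of all peaks called under these scalings are not given here, so the counts cannot show whether the set differs from other peaks.

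In aged mice ribosomal protein start peaks were lower in OT-1 Tterm than in naive cells about as often as other start peaks were. The shares were 29.4% and 32.6% of start peaks of other genes. They were less often higher, at 1.96% against 9.35%. Of 176 members 9 were higher and 48 lower, where 21.4% of all peaks were called higher and 26.3% lower (47.7% in either direction). Of the 51 start peaks 1 was higher and 15 were lower, with a median of -0.34, while start peaks of other genes had -0.38, with 1021 of 10918 higher and 3562 lower. Rps6, whose protein is phosphorylated downstream of mTORC1, had 738.0 and 855.1 in aged naive and 393.8 to 588.8 (median 442.8) in aged OT-1 Tterm. The groups did not overlap, at a difference of -0.84 (SE 0.24, adjusted p = 0.00629 in limma). Rps23 had 652.3 and 700.6 in aged naive and 249.2 to 503.9 (median 316.0) in aged Tterm, a difference of -1.10 (SE 0.24, adjusted p = 0.000770 in limma). Rpl24 had 397.4 and 451.9 against 106.0 to 329.7 (median 224.4), a difference of -1.15 (SE 0.32, adjusted p = 0.00583 in limma), and Rpl37a, a zinc-finger protein of the large subunit, had 495.5 and 600.6 against 213.4 to 419.5 (median 276.9), a difference of -1.01 (SE 0.25, adjusted p = 0.00208 in limma). None of these groups overlapped, where 33.3% of all peaks tested had every aged OT-1 Tterm library below every aged naive library. The calls of Rps6 and Rpl37a were lost without the first aged naive library, and those of Rps23 and Rpl24 were not followed through the alternatives.

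Of the start peaks, 7 of 51 had fitted differences above 0 in aged mice, against 31.9% of start peaks of other genes. Rpl41 was the one called higher, with 1002 and 1065 in naive and 1363 to 1982 (median 1652) in OT-1 Tterm, a difference of 0.65 (SE 0.24, adjusted p = 0.0317 in limma). The call held under quantile scaling (0.42, adjusted p = 0.00110 in limma) and in 4 of 8 fits that left out a library, being lost without either aged naive library and without the second or the fourth aged OT-1 Tterm library. Leaving out the first aged naive library lowered the members called from 57 to 14, and leaving out the second lowered them to 27. In young mice, for comparison, leaving out the first naive library lowered the 33 calls of Tterm against naive to 9, and leaving out the second to 14. The naive libraries and their batch cannot be told apart in all of these comparisons.

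Between the ages, naive cells gave 1 higher and 0 lower of 176 members, where 4.08% of all peaks were called higher and 1.16% lower (5.24% in either direction). The member was a peak 6166 bp from Rpl34 (chr3:130736564-130737312), with 9.6 and 14.1 in young naive and 32.7 and 40.3 in aged naive, a difference of 1.56 (SE 0.45, adjusted p = 0.0433 in limma) that held in 0 of 4 fits with a library left out. The start-peak median was 0.19, but the members' median of 0.16 turned to -0.07 with equal totals and to -0.10 with quantile scaling. In OT-1 Tterm 0 of 176 members were called between the ages (0.266% of all peaks, 0.178% higher and 0.088% lower) by limma, edgeR or DESeq2, 10 had an unadjusted p under 0.05, and the start-peak median of aged minus young was -0.16. Equal totals gave 1 call there.

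Marker genes of other cells also differed between the groups of this table. Peaks at 3 of 4 NK cell genes summed to 3084 to 3145 normalized reads in aged naive and 1994 to 2056 in young naive, those at 8 myeloid genes to 4080 to 4225 and 3544 to 3651, and those at 5 CD4 and regulatory T cell genes to 2278 to 2367 and 3403 to 3451. Young OT-1 Tterm had 2164 to 3190 at NK cell genes and 3907 to 5560 at myeloid genes, above young naive and above young OT-1 Tprog (1824 to 1924 and 3277 to 3443). Aged OT-1 Tterm had 2162 to 2770 at NK cell genes, below aged naive and above aged OT-1 Tprog (1365 to 1936), and 4161 to 4986 at myeloid genes, overlapping aged naive and above aged OT-1 Tprog (2773 to 3649). Peaks at 5 B cell genes summed to 407 to 556 in young and 403 to 510 in aged OT-1 Tterm, below the naive libraries (593 to 594 in young and 678 to 696 in aged). The part of these in the differences was not tested.

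**Figure D5:**
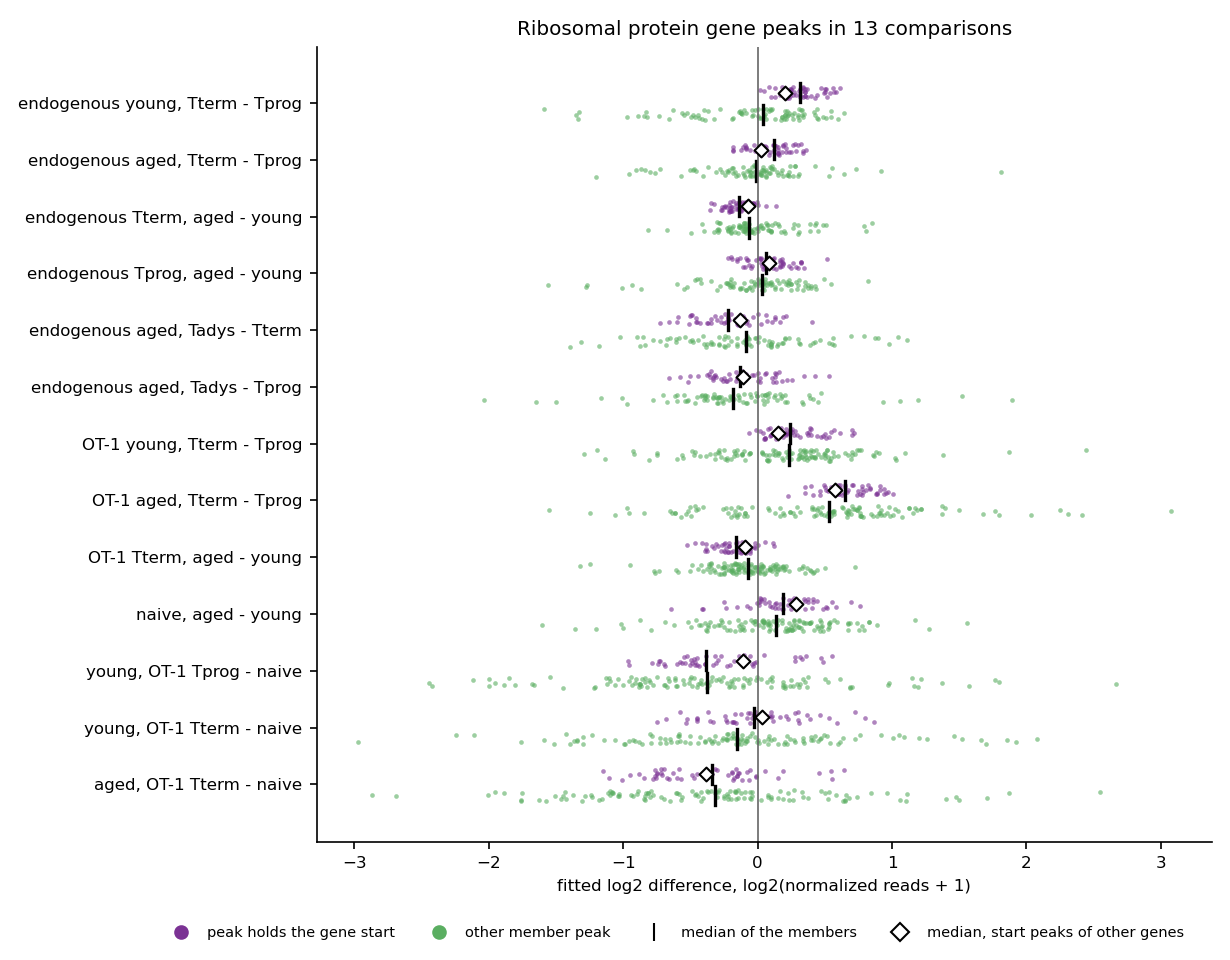
Fitted log2 differences of all tested ribosomal protein members in 13 comparisons, with start peaks in purple and other members in green, black bars at the median of each and diamonds at the median of start peaks of other genes. Start peaks lie closer together than the other members in each row, and their medians run from -0.38 (young OT-1 Tprog against naive, where the diamond is at -0.11) to 0.65 (aged OT-1 Tterm against Tprog, where it is at 0.57).

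Start peaks of other genes of ribosome production were counted in the same way. In young endogenous Tterm against Tprog, 9 of 52 start peaks of mitochondrial ribosomal protein genes were higher and 0 lower (median 0.21). Of ribosome biogenesis genes 9 of 21 were higher and 0 lower (0.30), of RNA polymerase I and III subunits 5 of 12 and 0 (0.26), of translation factors and other TOP mRNA genes 12 of 20 and 0 (0.33), and of mTORC1 and MYC control genes 10 of 25 and 0 (0.28). In aged endogenous cells the counts were 0, 1, 0, 0 and 1 higher and 0 lower in each list, with medians of 0.01, -0.01, 0.07, 0.13 and 0.01, where that of ribosomal protein start peaks was 0.12. In Tadys against aged Tterm the medians were -0.19, -0.19, -0.14, -0.13 and 0.04, against -0.22, with 5, 2, 0, 2 and 0 start peaks lower and 0 higher in each list. In aged OT-1 Tterm against naive, 2 of 53 mitochondrial ribosomal protein start peaks were higher and 21 lower (-0.43), 1 of 20 biogenesis start peaks higher and 10 lower (-0.56), and 0 of 12 polymerase start peaks higher and 7 lower (-0.60). Translation factor and TOP genes had 1 of 20 higher and 7 lower (-0.19), and mTORC1 and MYC control genes had 2 of 25 higher and 2 lower (-0.06). In the young, the aged endogenous and the naive comparison the medians of all peaks were -0.01, 0.01 and -0.17. Called higher in the young comparison were 14.3% of all peaks and 25.7% of start peaks outside the ribosomal protein set, and lower 11.3% and 5.93%. The same shares were 6.75% and 2.91% higher and 5.37% and 2.29% lower in aged endogenous cells. They were 2.06% and 0.785% higher and 4.23% and 5.85% lower in Tadys against aged Tterm, with an all-peak median of -0.03. For the naive comparison they were 21.4% and 9.35% higher and 26.3% and 32.6% lower.

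Members other than canonical ribosomal protein genes were few. Paralogs, retrogenes and Rps19bp1, a gene that matches the symbol rule but encodes a protein binding Rps19, made up 12 of 139 peaks at 8 genes in the endogenous table and 27 of 219 peaks at 9 genes in the other. Some start peaks also overlap a neighbouring gene, among them Rpl41 with Zc3h10, Rpl15 with Nkiras1, Rpl9 with Lias and Rps28 with Ndufa7, and reads there cannot be assigned to either gene. Giving such peaks to every gene they touch, the set would hold 150 and 231 peaks.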

How the data were processed

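ATAC-seq was deposited by the authors as 2 tables of normalized signal per peak, normalized apart, with 73610 peaks in 17 libraries and 169323 peaks in 21. Values in every column were whole reads divided by 1 factor per library, within a tolerance of 0.02, and the recovered reads gave the depth and the count tests. Per the submitters' processing notes, Bowtie2 2.2.9, Picard 2.8.0, SAMtools 1.3.1, MACS2 2.1.1, DESeq2 1.28.1 and build mm10 were used; their roles, read shifts and peak merging are not given in the sources used here.

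Each peak was given to the nearest RefSeq protein-coding gene body, ties to the gene with an end nearest the peak's midpoint. Gene starts came from the RefSeq promoter table of GRCm38.p6, the patch release of mm10. Peaks with a mean of 10 or more were tested, 71756 and 84091. Log2 of signal plus 1 was fitted with limma 3.58.1 (R 4.3.3) on all groups of a table, with a variance trend and, in the OT-1 and naive table, a term for Batch 6, so a fitted difference need not equal the ratio of the printed means. All adjusted p-values are Benjamini-Hochberg values over all peaks of a comparison. Unless a tool is named, p-values are limma's. Scripts were tested on simulated data. Alternatives were a pseudocount of 5, a filter at 30 or none, library totals set equal, quantile scaling, edgeR 4.0.16, DESeq2 1.42.0, a replicate block, the compared groups alone, no batch term, single batches, each library left out, ties to every gene, and members within 1000 bp of a gene end. The choices of ties and of distance to a gene end change only which members are counted. They cannot change a single peak's call, yet they are among the alternatives counted for each peak. The fit of Batch 6 alone was added after seeing the data.

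Members, gene lists and tests were chosen with earlier results of these data known. Named peaks were, per comparison, up to 8 called members of largest difference in each direction, and a fixed list of genes at their highest peak, of which the text uses a part. Some others, such as start peaks with printed sequences, were chosen after their values were seen. No 2 libraries of a group agreed within sampling noise (chi-square per degree of freedom of at least 4.40 and 2.48 in the tables). Results for 1 gene of the set are not reported here, though counts include it. Python 3.11.15 and matplotlib 3.10.9 made tables and plots.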

Additional observations from a re-analysis of the deposited data

Results flagged for a closer look

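In 4 of 92 groups of libraries looked at, 1 library stood far from the others by Dixon's criterion. Such flags also arise by chance, at a rate that was not computed here. At the Rpsa start peak the highest young endogenous Tterm library had 1195 normalized reads, the others being 1106 to 1124. At the peak near Rps20 the lowest young endogenous Tterm library had 58.1 and the others 68.6 to 72.8. At the Rpl27 peak beyond the gene's end (chr11:101446377-101446739) the lowest aged OT-1 Tterm library had 68.1, and at the Rpl27 start peak the highest young OT-1 Tterm library had 1247.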

How the results depend on the processing

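Of the counts of called members under alternatives, 203 stayed within 1.5 times the count reported and 72 did not. The shares of all peaks called that are printed in the results belong to the main fit. Shares under the alternatives are not given, so these counts cannot show whether a change was particular to the set. Young endogenous Tterm against Tprog had 39 members called, with 25 under equal totals, 5 under quantile scaling and 25 to 42 with a library left out (25 without the second and 27 without the fourth young Tprog library). Aged endogenous Tterm against Tprog had 3, with 8 in DESeq2, 0 within 1000 bp of a gene end and 1 to 3 with a library left out (1 without the third aged Tterm library). Tprog between the ages had 0, with 2 in DESeq2. Tadys against Tterm had 7, with 4 under equal totals, 11 in DESeq2, 1 with the compared groups alone, 4 within 1000 bp and 1 to 7 with a library left out. Tadys against Tprog had 7, with 0 with the compared groups alone, 4 within 1000 bp and 2 to 5 with a library left out.

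Young OT-1 Tterm against Tprog had 3, with 7 under equal totals, 8 under quantile scaling, 5 in edgeR, 9 in DESeq2, 5 with the compared groups alone, 1 within 1000 bp and 0 to 6 with a library left out (0 without the second Tprog library). Aged OT-1 Tterm against Tprog had 12, with 6 without a filter, 25 at a mean of 30, 6 in edgeR, 0 with the compared groups alone, 5 without a batch term, 0 in Batch 6 alone, 6 within 1000 bp and 3 to 107 with a library left out. OT-1 Tterm between the ages had 0, with 1 under equal totals. Naive cells between the ages had 1, with 0 at a pseudocount of 5, without a filter, under equal totals, in edgeR and within 1000 bp, 5 under quantile scaling, 39 with the compared groups alone and 0 with any library left out; the members' median turned from 0.16 to -0.0729 under equal totals and -0.0993 under quantile scaling. Young OT-1 Tterm against naive had 33, with 61 under equal totals, 67 under quantile scaling, 12 within 1000 bp and 9 to 33 with a library left out. Young OT-1 Tprog against naive had 19, with 42 under equal totals, 60 under quantile scaling, 29 in DESeq2, 71 with the compared groups alone, 6 within 1000 bp and 5 to 14 with a library left out. Aged OT-1 Tterm against naive had 57, with 27 within 1000 bp and 14 to 64 with a library left out. Fewer peaks enter the counts within 1000 bp; the cause of the other changes was not tested.

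Deviations of same-numbered libraries of different groups correlated with a median of -0.03 (-0.27 to 0.28) in the endogenous table. In the other table the median was -0.003 (-0.15 to 0.28). For libraries with different numbers the medians were 0.007 and 0.001. The same-numbered pairs include young with aged libraries, which cannot come from the same mouse. The medians therefore cannot show whether same-numbered subsets of an age came from the same mice. With the replicate block 1 member was called for Tadys against Tterm, 1 for Tadys against Tprog, 2 for aged endogenous Tterm against Tprog, 39 for the young one, 0 for both OT-1 comparisons of Tterm with Tprog, 42 between naive ages, and 64, 82 and 39 against naive cells for young Tterm, young Tprog and aged Tterm.

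Tables were scaled apart and cannot be compared in level. Groups of 2 libraries limit the naive, OT-1 Tprog and Tadys comparisons, and peaks of fewer than 30 normalized reads rest on few reads. Groups this small often separate. Over all peaks, every Tadys library lay below every aged Tterm library at 19.1%, and below every aged Tprog library at 17.5%. Aged Tterm lay wholly above aged Tprog at 14.8% in endogenous and 10.9% in OT-1 cells. Young OT-1 Tterm and Tprog lay wholly above young naive cells at 24.7% and 36.0%. Gene assignment beyond a gene body rests on distance.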

Other observations

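Further peaks at gene ends without a matched promoter entry followed the start peaks in young endogenous Tterm against Tprog. Rps29 had 1832 ± 123 (SD, n = 5) in Tterm and 1368 ± 122 (SD, n = 4) in Tprog, a log2 difference of 0.42 (adjusted p = 0.00345 in limma). Rpl30 had 1401 ± 92.3 (SD, n = 5) and 1024 ± 74.5 (SD, n = 4), a difference of 0.45 (adjusted p = 0.00140 in limma). Rpl29 had 1027 ± 74.0 (SD, n = 5) and 722 ± 60.9 (SD, n = 4) at the gene, a difference of 0.51 (adjusted p = 0.000678 in limma), opposite in direction to the lower peak 9864 bp away. A peak 3668 bp from Rps26 (chr10:128619782-128620861) was higher in OT-1 Tterm than in naive cells, by 1.20 in young (adjusted p = 0.00700) and 1.70 in aged mice (adjusted p = 0.000343) in limma. In aged mice it had 72.0 ± 24.0 (SD, n = 6) in Tterm and 22.8 ± 8.46 (SD, n = 2) in naive cells.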
